A study of Mus musculus with 5 samples.

Results

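MicroRNAs are made and used by a short chain of proteins, and the mRNAs of 10 of these proteins were followed in murine lung cancer-associated fibroblasts (CAFs) with and without overexpressed miR-200. The members were chosen by symbol for their role, with earlier results of these data known: *Drosha*, *Dgcr8*, *Xpo5*, *Dicer1*, *Ago1*, *Ago2*, *Ago3*, *Ago4*, *Tnrc6a* and *Tnrc6b*. All 10 were found among the 21835 genes of the table, and all 10 passed the filter on low values that left 12175 genes for testing.

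CAFs are fibroblasts of the tumour stroma. The control group, CAF-vec (2 samples), carried the empty lentiviral vector and had the genotype label "WT control", and the other group, CAF-200 (3 samples), overexpressed the clustered microRNAs miR-200b, miR-200a and miR-429. Both groups were CAFs of mouse lung, grown in alpha-MEM with serum, infected with lentivirus and kept under drug selection. The labels name a neomycin vector and G418 selection of CAFs, whereas the methods name a hygromycin vector put into normal lung fibroblasts, and the methods describe triplicates whereas 2 CAF-vec samples were analysed here. The labels do not say whether samples of a group came from separate cultures, so *p* values measure the spread between these samples, which may be technical.

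In the nucleus, DROSHA and its partner DGCR8 cut the primary microRNA transcript into a hairpin, which Exportin-5 (*Xpo5*) carries to the cytoplasm. DICER1 removes the loop of the hairpin, and 1 strand is loaded into an Argonaute protein (*Ago1* to *Ago4*), of which AGO2 is known for cutting fully paired targets. The Argonaute binds TNRC6 proteins (*Tnrc6a* and *Tnrc6b*), scaffolds that bring the deadenylases and decapping enzymes to the target mRNA.

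The 3 overexpressed microRNAs are shown because their seeds, bases 2 to 8 counted from the 5′ end and printed in capitals, set which 7-base matches were looked for in the members. Mature sequences are from RefSeq (GRCm38.p6), where the 3 hairpins lie within 1846 bases of the minus strand, chr4:156053905-156055750.
mmu-miR-200b-3p: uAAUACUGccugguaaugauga
mmu-miR-429-3p: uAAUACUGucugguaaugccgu
mmu-miR-200a-3p: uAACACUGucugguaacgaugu
miR-200b and miR-429 share 1 seed, whose match in an mRNA is CAGTATT, and the seed of miR-200a is matched by CAGTGTT. Their hairpins of 70, 83 and 90 bases (miR-200b, miR-429 and miR-200a) have 14, 16 and 16 bases between both annotated arms, where the loop lies that DICER1 removes. The mature microRNAs were not measured by these mRNA libraries, and none of the 3 microRNA genes has a row among the genes analysed here.

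Of the 12175 genes tested, 10.0% were called at an adjusted *p* under 0.01 (limma on log2(CPM + 0.5), Benjamini-Hochberg), 5.57% lower and 4.45% higher in CAF-200. CPM are counts scaled by the authors to a common library total, and log2FC is the log2 fold-change, CAF-200 minus CAF-vec, on that scale. Against this background, 0 of the 10 members were called in either direction at that threshold. At an adjusted *p* under 0.05, which 30.5% of all genes reached (18.6% lower, 11.9% higher), 2 members were lower (*Ago1* and *Ago4*) and 0 were higher, and at an unadjusted *p* under 0.05, which 44.9% of all genes reached, there were 3 (*Dgcr8* in addition). Past a log2FC of 1 as well, 4.72% of all genes and 0 members were called. In 6 members the samples of both groups did not overlap, 3 lower and 3 higher in CAF-200, beside 61.6% of all genes (37.3% lower, 24.3% higher). The median log2FC of the members was 0.06, with 3 estimates below 0 and 7 above, and the median of all genes tested was −0.094.

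**Figure D1:**
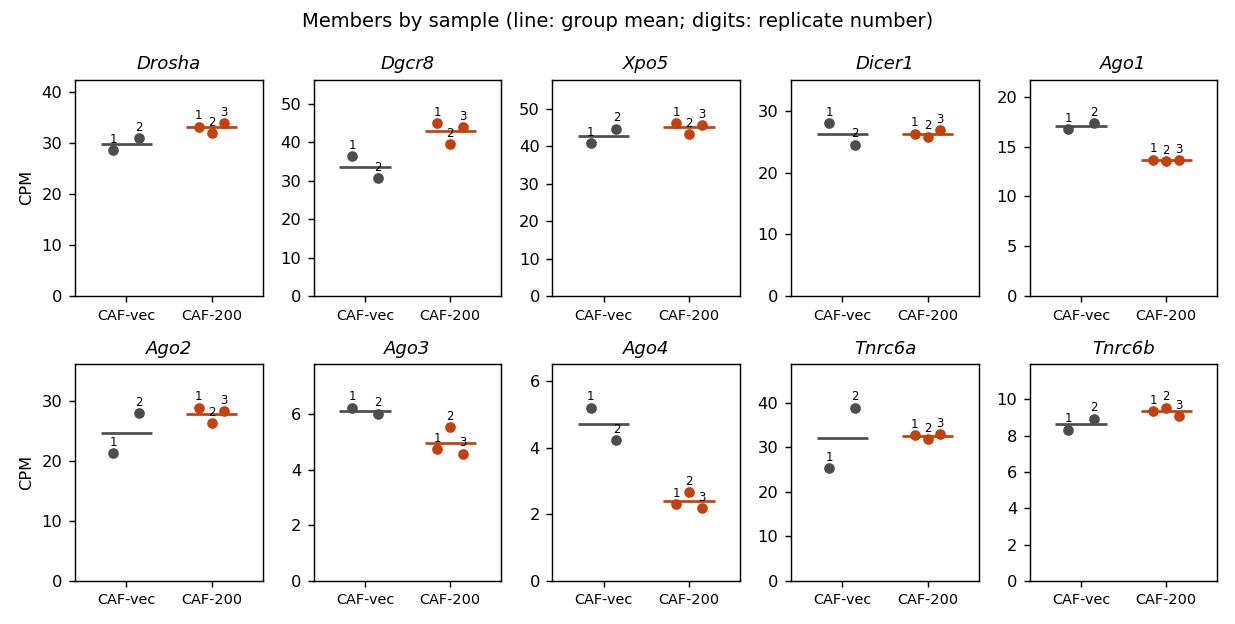
CPM of each of the 10 members (y axes, each from 0) in the 2 CAF-vec and 3 CAF-200 samples, with the group mean as a line and the replicate number above each point. The *Ago4* points of CAF-200 (2.18 to 2.68 CPM) lie below both CAF-vec points (4.24 and 5.21 CPM), while the *Tnrc6a* points of CAF-200 lie between the 2 CAF-vec points.

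Several facts of the libraries bear on all values. The CAF-vec samples differed from each other by an SD of 0.490 (log2 difference over genes), against 0.192 to 0.204 between pairs of CAF-200 samples. Over the members, the largest difference between the CAF-vec samples was 0.607 (*Tnrc6a*). *Zeb1*, a known target of miR-200, was 43.5 and 50.7 CPM in CAF-vec and 37.8, 37.5 and 34.1 CPM in CAF-200 (log2FC −0.36, limma adjusted *p* = 0.0504), so its groups did not overlap, whereas those of *Zeb2* did. Of 12 fibroblast markers, 11 were above 1 CPM in every sample and *Fap* was not, and their summed level was from 13509 to 17338 CPM for CAF-vec and from 11467 to 12403 CPM for CAF-200. The summed level of 7 epithelial markers was at most 0.421 CPM (*Krt18*, *Sftpc* and *Nkx2-1* at 0), that of 4 endothelial markers at most 1.06 CPM, and that of 5 leukocyte markers from 2.25 to 5.10 CPM for CAF-vec and from 2.44 to 3.60 CPM for CAF-200 (*Adgre1* and *Cd3e* at 0). Single markers of this list went both ways. *Pdgfrb* was 214 and 218 CPM in CAF-vec and 187, 185 and 174 CPM in CAF-200, without overlap. The means of *Vim* (3133 and 2340 CPM) and *Pdgfra* (104 and 90.1 CPM) were lower in CAF-200, with overlap between the groups. *Col1a1* was 4613 and 2003 CPM in CAF-vec and between 1543 and 1719 CPM in CAF-200, and *Col1a2* was 5185 and 2567 CPM in CAF-vec and between 2048 and 2284 CPM in CAF-200, so most of their gap lies in CAF-vec 1. The means of *S100a4*, the most abundant marker, were 4512 CPM in CAF-vec and 4497 CPM in CAF-200, while those of *Acta2* (109 and 674 CPM), *Thy1* (98.0 and 268 CPM), *Col3a1* (56.4 and 107 CPM), *Dcn* (7.93 and 56.4 CPM) and *Lum* (3.63 and 28.6 CPM) were higher in CAF-200. The part of these differences in the members' values was not tested. In such bulk samples, fewer cells of a type and less RNA per cell cannot be told apart.

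The nuclear step came first in the comparison. *Drosha* (ENSMUSG00000022191, chr15:12824815-12935291, plus strand, GRCm38), which encodes the nuclease that cuts the primary transcript, was 28.7 and 31.0 CPM in CAF-vec and 33.3, 32.1 and 34.0 CPM in CAF-200. All CAF-200 values were above both CAF-vec values, by a small margin. The means were 29.8 ± 1.59 (SD, n = 2) and 33.1 ± 0.968 CPM (SD, n = 3). The estimate was a log2FC of 0.15 (standard error 0.086, 95% interval −0.065 to 0.36, limma adjusted *p* = 0.231). It was 0.094 without CAF-vec 1, 0.201 without CAF-vec 2 and 0.245 with quantile normalization.

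*Dgcr8* (ENSMUSG00000022718, chr16:18253948-18289246, minus strand), the RNA-binding partner of DROSHA, was 36.4 and 30.8 CPM in CAF-vec and 45.1, 39.6 and 44.1 CPM in CAF-200. Its groups did not overlap, and its estimate was the highest of the 10 members, with means of 33.6 ± 3.98 (SD, n = 2) and 42.9 ± 2.93 CPM (SD, n = 3). The log2FC was 0.35 (standard error 0.114, 95% interval 0.070 to 0.63, limma: unadjusted *p* = 0.0227, adjusted *p* = 0.0649), above 0.01. The size rests in part on CAF-vec 2, the lower control, without which it was 0.23. Without CAF-vec 1 it was 0.47. With quantile normalization it was 0.45 (limma adjusted *p* = 0.0204).

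Export and loop removal showed smaller differences. *Xpo5* (ENSMUSG00000067150, chr17:46202782-46243598, plus strand), the carrier of the hairpin out of the nucleus, was 40.8 and 44.7 CPM in CAF-vec and 46.2, 43.2 and 45.8 CPM in CAF-200. The groups overlapped, with a log2FC of 0.075 (standard error 0.089, 95% interval −0.15 to 0.30, limma adjusted *p* = 0.541). It was 0.0099 without CAF-vec 1 and 0.14 without CAF-vec 2. *Dicer1* (ENSMUSG00000041415, chr12:104687742-104751952, minus strand), the cytoplasmic nuclease, was 28.1 and 24.6 CPM in CAF-vec and 26.4, 25.9 and 26.9 CPM in CAF-200. All 3 CAF-200 values lay between the CAF-vec values, and the log2FC was 0.0053 (standard error 0.095, 95% interval −0.23 to 0.24, limma adjusted *p* = 0.970). Its sign turned without CAF-vec 2 (−0.089).

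**Figure D2:**
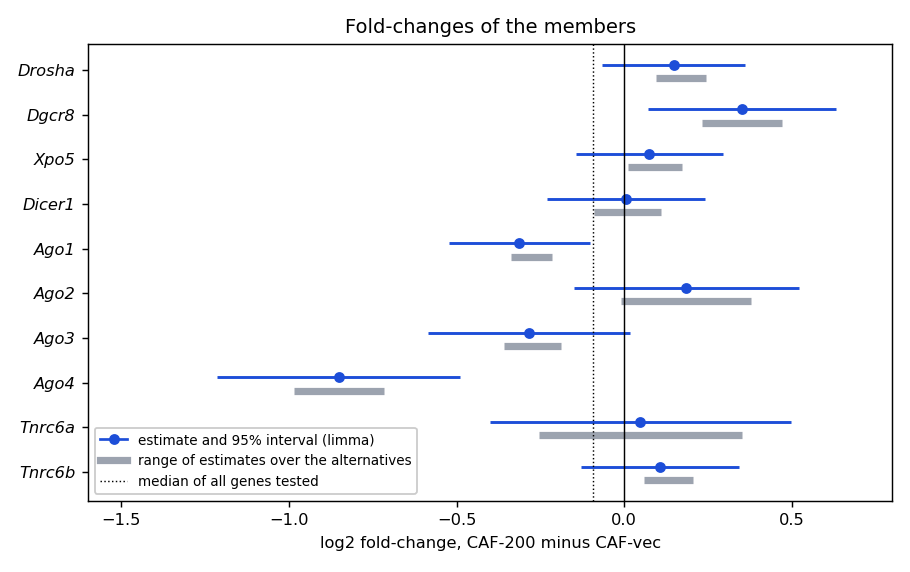
Log2 fold-change of each member (x axis, CAF-200 minus CAF-vec) as the limma estimate with its 95% interval in blue, and in grey the range of estimates over 13 alternatives of scaling, filter, pseudocount, block and left-out samples. The interval of *Ago4* lies wholly below 0 (−1.21 to −0.49), and the grey bars of *Dicer1*, *Ago2* and *Tnrc6a* cross 0.

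Among the Argonautes, *Ago4* had the lowest estimate of all 10 members. *Ago4* (ENSMUSG00000042500, chr4:126489541-126533472, minus strand), one of the Argonautes not known for target cutting, was 5.21 and 4.24 CPM in CAF-vec and 2.31, 2.68 and 2.18 CPM in CAF-200. Every CAF-200 value was below both CAF-vec values, and the ratio of the means, 4.72 ± 0.686 (SD, n = 2) and 2.39 ± 0.259 CPM (SD, n = 3), was 0.506. The log2FC was −0.85 (standard error 0.147, 95% interval −1.21 to −0.49, limma: unadjusted *p* = 0.0013, adjusted *p* = 0.0116), above the threshold of 0.01 by a small amount. Over 13 alternatives the estimate ranged from −0.99 to −0.72 and the adjusted *p* from 0.0012 to 0.0614 (limma), under 0.01 in 3 of them and under 0.05 in 10. The 3 were the fits without a variance trend, without CAF-vec 1 (which called 1951 genes lower and 1550 higher of the 12175) and without CAF-vec 2 (3766 lower and 2307 higher), against 678 and 542 with all samples. In the fit without CAF-200 3 the adjusted *p* was 0.0614, and without CAF-200 1 it was 0.0565 (limma). The added 0.5 CPM understates a fold-change at such low values.

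*Ago1* (ENSMUSG00000041530, chr4:126435012-126468583, minus strand) was 16.7 and 17.4 CPM in CAF-vec and 13.7, 13.6 and 13.6 CPM in CAF-200. The values were close together within each group and the groups did not overlap, with means of 17.05 ± 0.460 (SD, n = 2) and 13.6 ± 0.0603 CPM (SD, n = 3). The log2FC was −0.31 (standard error 0.085, 95% interval −0.52 to −0.10, limma adjusted *p* = 0.0409), and it was under 0.05 in 6 of 13 alternatives. With each sample centred on its median it was −0.22 (limma adjusted *p* = 0.129), and with quantile normalization −0.24 (limma adjusted *p* = 0.0877).

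*Ago3* (ENSMUSG00000028842, chr4:126331704-126429556, minus strand) was 6.24 and 6.03 CPM in CAF-vec and 4.75, 5.55 and 4.59 CPM in CAF-200. The groups did not overlap, although CAF-200 2 came close to CAF-vec, and the log2FC was −0.28 (standard error 0.122, 95% interval −0.59 to 0.017, limma adjusted *p* = 0.126). *Ago2* (ENSMUSG00000036698, chr15:73095844-73184935, minus strand), the Argonaute that cuts targets, was 21.4 and 28.1 CPM in CAF-vec and 28.9, 26.4 and 28.4 CPM in CAF-200. CAF-vec 1 was the low sample, and CAF-vec 2 lay within the range of CAF-200. The log2FC was 0.18 (standard error 0.136, 95% interval −0.15 to 0.52, limma adjusted *p* = 0.331). It was −0.0084 without CAF-vec 1 and 0.38 without CAF-vec 2 (limma adjusted *p* = 0.0061). So its direction rests on which of the 2 control samples is used. The fit without CAF-vec 2 called 3766 genes lower and 2307 higher of the 12175.

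The 4 Argonautes summed to 49.5 and 55.7 CPM in CAF-vec and 49.7, 48.2 and 48.8 CPM in CAF-200, and these ranges overlapped by CAF-vec 1. Sums of CPM weigh long mRNAs more, so the shares of the Argonautes were also computed per kilobase of exon (CPM divided by the merged length of the exons of protein-coding transcripts, GENCODE M21).

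Per kilobase, the share of *Ago4* in the Argonaute mRNA was 15.8% and 11.9% in CAF-vec and 7.62%, 9.002% and 7.30% in CAF-200. The mean share was 13.8 ± 2.77% (SD, n = 2) and 7.97 ± 0.906% (SD, n = 3), a difference of −5.84 percentage points, without overlap. The share of *Ago2* was 30.6% and 37.2% in CAF-vec and 45.2%, 42.1% and 45.1% in CAF-200, and all CAF-200 values were higher. *Ago1* made up 45.8% and 44.0% in CAF-vec and 40.7%, 41.2% and 41.3% in CAF-200, again without overlap, while the shares of *Ago3* overlapped (6.97% and 7.81% in CAF-vec, 6.35% to 7.70% in CAF-200). Shares of a sum cannot move independently, and no test was run on them, since the smallest two-sided exact permutation *p* for 2 against 3 samples is 0.2. A share within a sample does not depend on the scaling between samples.

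**Figure D3:**
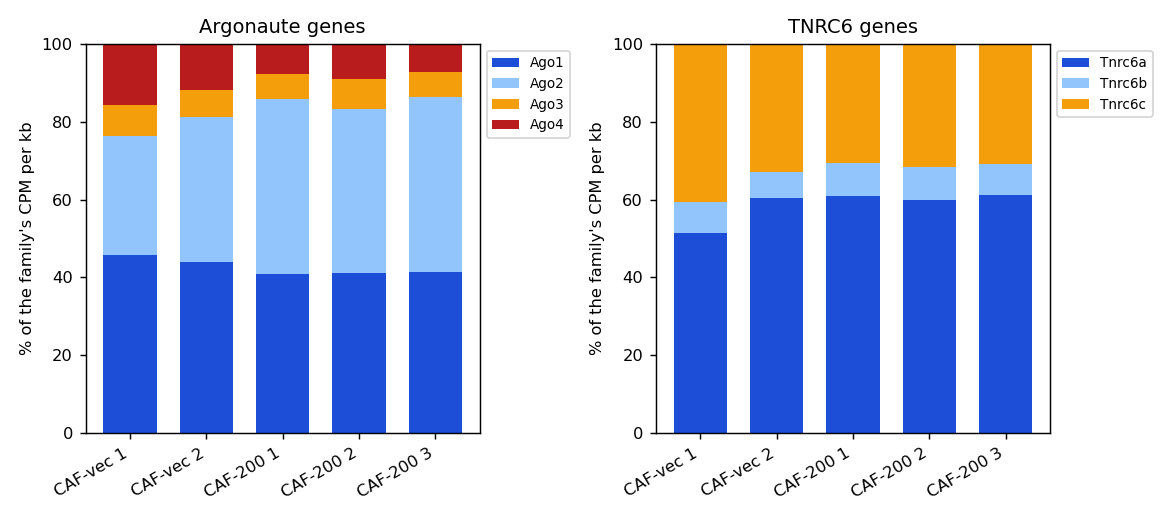
Share of each paralogue in the summed CPM per kilobase of its family (y axes, %) in each of the 5 samples, for the 4 Argonautes (left) and the 3 TNRC6 genes (right). The *Ago4* segment is 11.9% to 15.8% in CAF-vec and 7.30% to 9.002% in CAF-200, and the *Tnrc6c* segment is 33.0% to 40.6% in CAF-vec and 30.7% to 31.7% in CAF-200.

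The same values can be written as ratios of CPM within each sample, which is not a separate observation. The ratio of *Ago4* to *Ago2* was 0.244 and 0.151 in CAF-vec and 0.0799, 0.101 and 0.0767 in CAF-200. The ratio of *Ago1* to *Ago2* was 0.783 and 0.619 in CAF-vec and 0.473, 0.514 and 0.480 in CAF-200. The ratio of *Ago3* to *Ago2* was 0.292 and 0.215 in CAF-vec and 0.164, 0.210 and 0.162 in CAF-200. For each of the 3 ratios all CAF-200 samples were below both CAF-vec samples, with CAF-vec 2 the nearer control, and the 3 ratios share *Ago2* as their denominator.

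The scaffolds of silencing showed no call. *Tnrc6a* (ENSMUSG00000052707, chr7:123123885-123195296, plus strand), which links Argonaute to the deadenylases, was 25.4 and 38.9 CPM in CAF-vec and 32.7, 31.8 and 33.0 CPM in CAF-200. The CAF-vec samples differed more than the groups did, with all CAF-200 values between them, and the log2FC was 0.048 (standard error 0.182, 95% interval −0.40 to 0.50, limma adjusted *p* = 0.851). It was −0.26 without CAF-vec 1 (limma adjusted *p* = 0.0231) and 0.35 without CAF-vec 2 (limma adjusted *p* = 0.0044), that is, each control sample alone gave an opposite direction, in fits that called more of all genes as given for *Ago4*. *Tnrc6b* (ENSMUSG00000047888, chr15:80711313-80941085, plus strand), its paralogue, was 8.33 and 8.93 CPM in CAF-vec and 9.36, 9.54 and 9.10 CPM in CAF-200. The groups did not overlap, but the log2FC was small, 0.11 (standard error 0.095, 95% interval −0.13 to 0.34, limma adjusted *p* = 0.416). The estimate was 0.060 without CAF-vec 1 and 0.155 without CAF-vec 2. With quantile normalization it was 0.184, and with each sample centred on its median 0.204. The other paralogue, *Tnrc6c*, was 22.2 and 23.6 CPM in CAF-vec and 18.3, 18.7 and 18.6 CPM in CAF-200 (log2FC −0.30, limma adjusted *p* = 0.0447), and its share of the TNRC6 mRNA per kilobase was 40.6% and 33.0% in CAF-vec and 30.7%, 31.7% and 30.9% in CAF-200. The share of *Tnrc6a* overlapped between the groups (51.4% and 60.4% in CAF-vec, 59.8% to 61.1% in CAF-200), as did that of *Tnrc6b* (6.60% and 8.03% in CAF-vec, 8.003% to 8.54% in CAF-200), although by coding length the latter did not overlap (13.0% and 15.5% against 15.6% to 16.5%).

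Levels can be compared between genes only per length. In CPM per kilobase of merged exon, the means of CAF-200 (n = 3) were 9.93 for *Dgcr8*, 8.87 for *Xpo5*, 7.24 for *Drosha*, 3.90 for *Tnrc6a*, 2.64 for *Dicer1*, 2.02 for *Ago2*, 1.88 for *Ago1*, 0.533 for *Tnrc6b*, 0.365 for *Ago4* and 0.313 for *Ago3*. Among the genes tested these levels ranged from the 60.8th percentile (*Dgcr8*) to the 5.88th (*Ago3*). Over all 5 samples the ranges of *Dgcr8* (7.13 to 10.4) and *Xpo5* (8.04 to 9.10) overlapped, as did those of *Dgcr8* and *Drosha* (6.29 to 7.44), those of *Ago2* (1.55 to 2.10) and *Ago1* (1.88 to 2.40), and those of *Ago4* (0.333 to 0.796) and *Ago3* (0.290 to 0.394). In CAF-vec *Ago1* was above *Ago2* (2.31 and 2.40 against 1.55 and 2.03 CPM per kilobase), and in CAF-200 *Ago2* was above *Ago1* (1.91 to 2.10 against 1.88 to 1.89). *Ago4* was above *Tnrc6b* in both CAF-vec samples (0.648 and 0.796 against 0.510 and 0.476) and below it in all CAF-200 samples, while by coding length it was above in CAF-vec 1 alone (2.02 against 1.53). The order depends on the length used, and by coding length the share of *Ago2* was above that of *Ago1* in CAF-vec as well (43.1% and 50.3% against 33.8% and 31.3%). *Ago2* has a 3′-UTR of 11064 bases in an exon length of 13800, and per kilobase of coding length its mean in CAF-200 was 10.8, above *Drosha* (8.04), *Tnrc6a* (5.72), *Ago1* (5.30) and *Dicer1* (4.61), with *Ago3* at 1.92, *Tnrc6b* at 1.72 and *Ago4* at 0.925.

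*Ago3*, *Ago1* and *Ago4* lie next to each other in this order, all on the minus strand of chr4:126331704-126533472, with gaps of 5455 and 20957 bases between them. *Ago2* lies on chromosome 15. The neighbours within 200000 bases on either side were looked at after the values of the 3 genes were seen. Of 11 neighbours tested, 9 had an estimate below 0 and 2 above, beside 7097 and 5078 of all 12175 genes, and 2 were called lower at an adjusted *p* under 0.01, *Stk40* (log2FC −0.82) and *Eva1b* (−2.21), beside 5.57% of all genes. At an adjusted *p* under 0.05 *Sh3d21* was lower as well (log2FC −1.07, limma adjusted *p* = 0.0331), which makes 3 of 11 beside 18.6% of all genes, and *Clspn* was higher. *Clspn*, the nearest gene of the table beyond *Ago4*, was 22.3 and 14.9 CPM in CAF-vec and 35.3, 31.8 and 34.0 CPM in CAF-200 (log2FC 0.87, limma adjusted *p* = 0.0182). The 2 neighbours above 0, *Clspn* and *Psmb2* (log2FC 0.47), lay beyond *Ago4*, where another neighbour was below 0. All neighbours tested on the *Ago3* side had estimates below 0. Whether the location bears on the values of the 3 Argonaute genes was not tested.

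**Figure D4:**
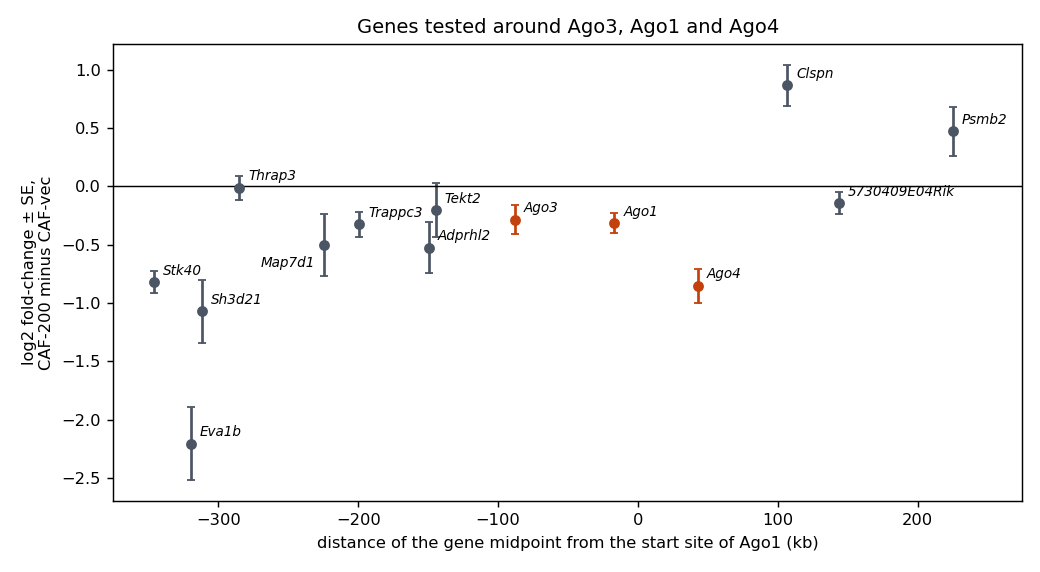
Log2 fold-change (y axis, CAF-200 minus CAF-vec, ± standard error) of the genes tested around *Ago3*, *Ago1* and *Ago4* (orange) against the distance of each gene's midpoint from the start site of *Ago1* (x axis, kb). The 3 Argonautes are below 0, *Eva1b* is the lowest at −2.21 and *Clspn* the highest at 0.87.

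The 3′-UTRs of the members were searched for the matches CAGTATT and CAGTGTT, on the mRNA strand and in the longest annotated 3′-UTR of each gene. These words do not overlap each other, and among 12055 tested genes with a 3′-UTR 15.8% held the first, 20.8% the other and 30.3% either. Of the 10 members, 6 held at least 1 match: *Ago2* held 3 of miR-200b and miR-429 and 2 of miR-200a, *Tnrc6b* held 1 and 4, and *Xpo5*, *Dicer1*, *Ago1* and *Ago3* held 1 of miR-200a each. *Drosha*, *Dgcr8*, *Ago4* and *Tnrc6a* held none in this window, which says only that these letters are not in it. Whether the matches bear on the members' values was not tested. The members' 3′-UTRs are long, with a median of 3766.5 bases against 1174 bases over the genes. Among genes whose 3′-UTR is within 25% of the same length, a match of either kind was held by 92.0% for *Ago2*, 92.3% for *Ago3*, 94.4% for *Tnrc6b*, 65.0% for *Ago1*, 61.0% for *Dicer1*, 60.3% for *Ago4*, 46.1% for *Tnrc6a*, 32.6% for *Dgcr8*, 29.0% for *Xpo5* and 2.79% for *Drosha*. A match is a description of the sequence and not a site of regulation.

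The 5 windows of *Ago2*, the only member with more than 1 match to miR-200b and miR-429, are shown with that of *Ago1*, the member with matches that had an adjusted *p* under 0.05. Each is 30 bases of the annotated 3′-UTR (GENCODE M21, GRCm38, minus strand) with the match in capitals.
*Ago2*, miR-200b and miR-429, chr15:73106036-73106065: tatctggtttgCAGTATTaatgtggtaggt
*Ago2*, miR-200b and miR-429, chr15:73102437-73102466: aacacacatttCAGTATTacatgctcgagt
*Ago2*, miR-200b and miR-429, chr15:73100433-73100462: cctggccgctgCAGTATTcagctaacactt
*Ago2*, miR-200a, chr15:73103217-73103246: tataactgtccCAGTGTTtaccttcaggct
*Ago2*, miR-200a, chr15:73102164-73102193: aatagcccagtCAGTGTTaacaggccattg
*Ago1*, miR-200a, chr4:126436658-126436687: cacattacaaaCAGTGTTgccaagcctcag
Of the 14 matches in the members, 4 were followed by an A, the base that lies across from the first base of the microRNA. *Ago2* holds 5 of the 14 matches and 3 of those 4. The share followed by an A in other genes is not given here.

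The genes that work beside the members were taken from a list of 60 partners, of which 57 could be tested and *Lin28a*, *Lin28b* and *Trim71* were too low. At an adjusted *p* under 0.01, 4 partners were lower in CAF-200 (*Zswim8*, *Gigyf1*, *Ajuba* and *Ddx17*) and 0 were higher, beside 5.57% and 4.45% of all genes. At an adjusted *p* under 0.05, 12 of the 57 were lower and 2 higher, beside 18.6% and 11.9% of all genes, and at an unadjusted *p* under 0.05 there were 15 lower and 7 higher, beside 3359 and 2110 of the 12175 genes. The median log2FC of the partners was −0.048, beside −0.094 for all genes. Without CAF-200 1, 2 or 3 in turn, 0 partners were called, in fits that called at most 1 of the 12175 genes, so these counts say nothing about the partners. Without CAF-vec 1 there were 8 partners lower, beside 1951 of all genes, and without CAF-vec 2 there were 17, beside 3766. Over the 13 alternatives the log2FC of the called partners ranged from −1.13 to −0.996 for *Zswim8*, from −1.22 to −0.90 for *Gigyf1*, from −0.78 to −0.55 for *Ajuba* and from −0.61 to −0.48 for *Ddx17*.

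*Zswim8*, the substrate receptor of the ubiquitin ligase that removes Argonaute during target-directed microRNA decay, was 68.1 and 70.3 CPM in CAF-vec and 33.5, 29.8 and 33.1 CPM in CAF-200. Its groups were far apart, and it fell by 1.10 on the log2 scale (standard error 0.0923, limma adjusted *p* = 0.0028). Its adjusted *p* over the alternatives ranged from 6.4e-05 to 0.0277 (limma). *Gigyf1*, part of a cap-binding complex that represses translation, was 87.3 and 69.6 CPM in CAF-vec and 37.6, 37.8 and 36.1 CPM in CAF-200. It fell by 1.06 (standard error 0.118, limma adjusted *p* = 0.0042), and its adjusted *p* over the alternatives ranged from 1.9e-05 to 0.0365 (limma). Its paralogue *Gigyf2* had a log2FC of −0.63 (limma adjusted *p* = 0.0206).

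*Ajuba*, a LIM-domain protein that binds Argonaute complexes, was 61.6 and 52.7 CPM in CAF-vec and 37.4, 34.3 and 35.4 CPM in CAF-200. It fell by 0.67 on the log2 scale (limma adjusted *p* = 0.0088, 0.00014 to 0.0571 over the alternatives). *Ddx17*, a helicase of the complex of DROSHA and DGCR8, was 245 and 238 CPM in CAF-vec and 160, 169 and 157 CPM in CAF-200. It fell by 0.58 (limma adjusted *p* = 0.0084, 0.00025 to 0.0833 over the alternatives). Its paralogue *Ddx5* was 982 and 796 CPM in CAF-vec and 785, 760 and 757 CPM in CAF-200, also without overlap, with a log2FC of −0.20 (limma adjusted *p* = 0.266).

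**Figure D5:**
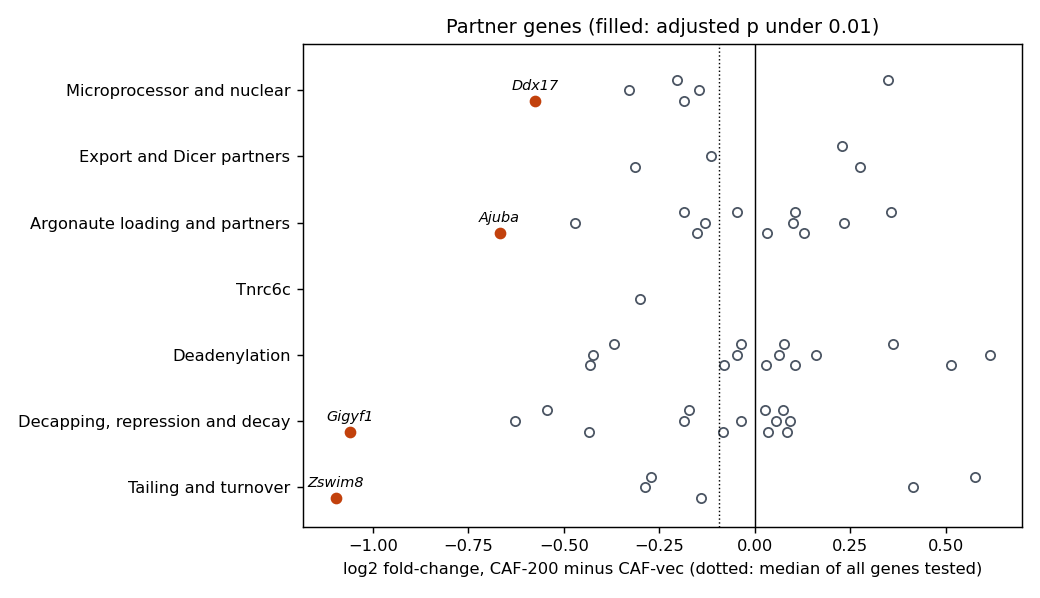
Log2 fold-change (x axis, CAF-200 minus CAF-vec) of the 57 partner genes tested, in rows by role, with filled points for an adjusted *p* under 0.01 and a dotted line at the median of all genes. The 4 filled points (*Ddx17*, *Ajuba*, *Gigyf1*, *Zswim8*) are all left of 0 and lie in 4 different rows.

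By role, the partners of the Microprocessor (the complex of DROSHA and DGCR8) and other nuclear factors had 1 of 6 called lower, beside 5.57% of all genes. *Srsf3* had a log2FC of 0.35 (limma adjusted *p* = 0.0348). Of the 4 partners of export and of DICER1, 0 were called, beside 10.0% of all genes. *Tarbp2*, which holds the RNA for DICER1, was 43.3 and 41.0 CPM in CAF-vec and 32.0, 35.2 and 34.3 CPM in CAF-200 (log2FC −0.31, limma adjusted *p* = 0.0453). The related *Prkra* was 13.1 and 20.6 CPM in CAF-vec and 20.6, 20.4 and 19.1 CPM in CAF-200, so CAF-vec 1 stood apart (log2FC 0.28, limma adjusted *p* = 0.307). Of the 12 genes of Argonaute loading and Argonaute partners 1 was called lower, beside 5.57% of all genes. Their median was −0.0080, beside −0.094 for all genes.

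Downstream of TNRC6, 0 of 14 deadenylation genes were called, beside 10.0% of all genes. Their median was 0.046, beside −0.094 for all genes. At an adjusted *p* under 0.05 there were 2 lower and 1 higher, beside 18.6% and 11.9% of all genes. *Pan3*, a subunit of the PAN2-PAN3 deadenylase, was 73.3 and 74.0 CPM in CAF-vec and 51.2, 54.7 and 57.6 CPM in CAF-200 (log2FC −0.43, limma adjusted *p* = 0.0185), without overlap. *Pan2*, the catalytic subunit, was 33.2 and 36.6 CPM in CAF-vec and 26.7, 25.9 and 25.0 CPM in CAF-200, also without overlap (log2FC −0.42, limma adjusted *p* = 0.0205). *Cnot9*, the subunit of the CCR4-NOT deadenylase that TNRC6 contacts, was 48.2 and 56.1 CPM in CAF-vec and 73.6, 70.8 and 79.1 CPM in CAF-200 (log2FC 0.51, limma adjusted *p* = 0.0186), and *Cnot1*, the scaffold of that deadenylase, had a log2FC of 0.11 (limma adjusted *p* = 0.416). Of 14 genes of decapping, repression and decay 1 was called lower, beside 5.57% of all genes. At an adjusted *p* under 0.05, 4 were lower, beside 18.6% of all genes. The 4 were *Gigyf1*, *Gigyf2*, the decapping scaffold *Edc4* (log2FC −0.44, limma adjusted *p* = 0.0198) and the decapping cofactor *Dcp1a* (log2FC −0.54, limma adjusted *p* = 0.0429). Of the same role the helicase *Ddx6*, the decapping enzyme *Dcp2* and the exonuclease *Xrn1* had log2FCs of 0.035, −0.19 and −0.17 (limma adjusted *p* = 0.772, 0.351 and 0.204). Of 6 genes of tailing and turnover, 1 was called (*Zswim8*, lower), beside 5.57% of all genes called lower.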

How the data were processed

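Stranded mRNA libraries of 2 CAF-vec and 3 CAF-200 samples were sequenced. The deposited values are 1 table of CPM, whose name refers to TMM scaling. Per the labels, the processing notes name FastQC, cutadapt, Trimmomatic, STAR, RSEM and edgeR, with GRCm38 and mm10. All 5 columns were used. Columns sum to 999956 to 1000111, and 24.8% to 68.3% of low values were whole multiples (within 0.05 read) of the commonest low value, so reads could not be recovered and the depth is unknown. The use of strand in counting is not given in the sources used here.

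The test was limma 3.58.1 (R 4.3.3; lmFit, then eBayes with trend, Benjamini-Hochberg) applied to log2(CPM + 0.5) of every gene that reached 0.5 CPM in 2 samples or more. Fold-changes are on that scale. The fit was tested on simulated data with the same spread in both groups, where smaller changes were often missed. A gene that was not called may therefore still differ. Coding lengths were added after seeing the data. GENCODE M21 (GRCm38) gave the names of 21795 genes, coordinates, exon lengths and 3′-UTRs, and RefSeq the microRNAs.

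The members and lists were chosen with earlier results of these data known. Named genes are the members, the partners called, *Tarbp2*, *Prkra*, *Ddx5*, *Ddx17*, *Tnrc6c*, *Cnot1*, *Pan3*, *Ddx6*, *Dcp2* and *Xrn1*, and *Zeb1* and *Zeb2*. *Gigyf2*, *Edc4*, *Dcp1a*, *Pan2*, *Srsf3*, *Cnot9*, *Stk40*, *Eva1b*, *Sh3d21*, *Clspn*, *Psmb2* and the single fibroblast markers were named after their values were seen. Host genes of microRNAs (20 listed) have no row and were not analysed here. Alternatives were other pseudocounts, filters, scalings and thresholds, no trend, a replicate block and left-out samples. Python 3.11.15 with pandas 2.3.3, numpy 2.4.6 and matplotlib 3.10.9 was used.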

Additional observations from a re-analysis of the deposited data

How the results depend on the processing

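Over 10 members and 13 alternatives, 125 of 130 estimates kept their direction and 5 reversed: *Dicer1* (−0.0081 with the replicate block and without CAF-200 3, −0.089 to 0.0999 with a sample left out), *Ago2* (−0.0084 to 0.38 with a sample left out) and *Tnrc6a* (−0.26 to 0.35 with a sample left out). The count of members lower was 0, and it was 1 without a variance trend, 2 at an adjusted *p* under 0.05 and 0 to 1 with a sample left out, and that of members higher, also 0, was 0 to 2 with a sample left out. The median log2 fold-change (log2FC) of the members, 0.06, was 0.152 with quantile normalization, 0.158 with centring, and 0.000745 to 0.147 with a sample left out. Partners called lower numbered 4, and 2 without a filter, 2 without a variance trend, 2 past a log2FC of 1, 12 at an adjusted *p* under 0.05 and 0 to 17 with a sample left out, and those higher numbered 0, 2 at 0.05 and 0 to 7. Over all genes 678 were lower and 542 higher, and the counts were 376 and 347 without a filter, 2265 and 1446 at 0.05, 286 and 289 past a log2FC of 1, and 0 to 3766 and 0 to 2307 with a sample left out. Of the called genes 55.6% were lower, 46.0% with quantile normalization and 43.0% with centring. The *Ago4* share difference of −5.84 percentage points was −7.80 to −3.89 with a sample left out, and −4.16 by coding length, an alternative chosen after seeing the data. The causes were not tested.

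In the fit with the replicate block, 70 genes of all were lower and 101 higher, 0 members and 0 partners were called lower, and *Ago4* had a log2FC of −0.80 (limma adjusted *p* = 0.0582). Only 2 numbers are shared, and CAF-200 3 adds nothing to that fold-change. Deviations of same-numbered samples correlated at 0.25 and 0.13, beside 0.12 between CAF-vec 2 and the differently numbered CAF-200 3, so a pairing was not established. Without 1 CAF-vec sample the lone control is assumed to vary like CAF-200. DESeq2 and edgeR were not run, since whole reads were not recovered. The depth is unknown, so no counting error can be given for any member.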
